A study of Mus musculus with 24 samples.

Results

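The adrenal cortex makes steroid hormones from cholesterol in a short chain of enzymes, and 10 genes of that chain, all found among the 21833 protein-coding genes of the deposited table, were followed here in mouse adrenal glands and neuroblastoma tumors. The genes were taken by symbol: Star, Cyp11a1, Hsd3b1, Cyp21a1, Cyp11b1 and Cyp11b2, whose products carry or convert the steroid, and Fdx1, Fdxr, Por and Cyb5b, whose products hand electrons to enzymes. STAR brings cholesterol to the inner mitochondrial membrane, where CYP11A1 cuts its side chain to give pregnenolone. HSD3B1 turns pregnenolone into progesterone, CYP21A1 hydroxylates it in the endoplasmic reticulum, and CYP11B1 or CYP11B2 finish corticosterone or aldosterone in mitochondria. The mitochondrial enzymes draw electrons from NADPH through ferredoxin reductase (FDXR) and ferredoxin (FDX1), and the microsomal ones through cytochrome P450 oxidoreductase (POR). CYB5B is the cytochrome b5 of the outer mitochondrial membrane. The chain belongs to cells of the cortex, whereas neuroblastoma arises from the sympatho-adrenal lineage that also forms the chromaffin cells of the medulla.

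RNA-seq of poly(A) RNA was done on 24 samples in 4 groups, all on a C57Bl6/N background. AG were adrenal glands of mice labelled CRE - (n = 3). AGM were adrenal glands of mice labelled MYCN +/-, CRE + (n = 5), which had formed no tumor. TI were tumors of mice labelled IGF2BP1 +/+, CRE + (7 samples) or IGF2BP1 +/-, CRE + (1 sample), and TIM were tumors labelled IMP1/MYCN, CRE + (n = 8), where IMP1 is another name of IGF2BP1. Both transgenes sat in the Rosa26 locus behind a stop cassette that a Cre recombinase under the Dbh promoter removes in sympatho-adrenal cells. IGF2BP1 was expressed without its own 3' untranslated region and together with a fluorescent reporter, and MYCN together with luciferase. The source was given as tumor adrenal gland for 1 TI and 2 TIM samples and as tumor spine for 1 TIM sample. The remaining tumors were labelled tumor only. The paper gives a fixed culling age for the MYCN mice, above the culling ages of the homozygous IGF2BP1 mice. It also lay above the median survival of mice with both transgenes. No age of the AG mice is given in the paper's text, so age and group cannot be told apart. The table's columns named groups but not samples, so zygosity, tumor site and sequencing run could not be tied to a library, and libraries are numbered here in column order.

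Values are FPKM, fragments per kilobase of gene and per 1000000 fragments of scaled library size, after a batch correction by the authors. Each FPKM value was a whole multiple of 1 read (within a tolerance of 0.01), so read numbers after correction could be recovered. Outside 126 genes that passed 1000 FPKM in at least 1 library, the 24 libraries held 12334076 to 23683176 such reads, whereas all genes together gave 17434796 to 17893013 in AG and 116740738 to 1170004708 in AGM. Summed over all genes, FPKM came to 46509 to 49415 in AG and 42071 to 56618 in TI. In AGM the sums were 653977 to 13538801 and in TIM 201136 to 4562646. FPKM sums this high cannot be read as amounts of a tissue. By label, AG was sequenced in run 1, AGM in run 2, TIM in runs 2 and 3 and TI mainly in run 1 (6 of 8 samples), and run and group cannot be told apart in AGM vs AG or TIM vs AG. A gene was counted as changed where limma on log2(FPKM + 1) gave a false discovery rate (FDR) below 0.05 over the 10171 genes that reached 1 FPKM in 3 or more libraries. All 10 genes passed that filter, Cyp11b2 only through its 5 AGM libraries. Cyp11a1 reached 1 FPKM in 8 libraries, all of them glands. Star, Cyp21a1, Cyp11b1 and Hsd3b1 reached it in 9 or 10, with at most 1 tumor of each tumor group among them. These 5 genes thus entered the tumor comparisons through the glands, where they are high.

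The 10 genes lie on 7 chromosomes of the mouse genome GRCm39 (GENCODE M39), and no 2 of them overlap. Cyp11b1 (ENSMUSG00000075604, chr15:74699444-74713748, minus strand) and Cyp11b2 (ENSMUSG00000022589, chr15:74720761-74728388, minus strand) are close relatives that stand 7012 bases apart, and how reads matching both were counted is not given in the sources used here, so their separate levels are uncertain. Star (ENSMUSG00000031574, chr8:26296583-26306010) and Cyb5b (ENSMUSG00000031924, chr8:107877210-107922737) are on the plus strand of chromosome 8. Cyp11a1 (ENSMUSG00000032323, chr9:57913694-57935933, plus strand) and Fdx1 (ENSMUSG00000032051, chr9:51852253-51875291, minus strand) are both on chromosome 9. Hsd3b1 (ENSMUSG00000027871, chr3:98757367-98767116, minus strand), Cyp21a1 (ENSMUSG00000024365, chr17:35018835-35024036, minus strand), Fdxr (ENSMUSG00000018861, chr11:115158844-115168006, minus strand) and Por (ENSMUSG00000005514, chr5:135698887-135764182, plus strand) each have a chromosome to themselves.

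Promoter windows of RefSeq, 250 bases before to 50 after a gene start on the older build GRCm38.p6, were found for 6 of the 10 genes: Cyp11a1, Hsd3b1, Fdx1, Fdxr, Por and Cyb5b. The windows of Hsd3b1 and Por are shown because on the log2(FPKM + 1) scale these genes marked the ends of the range in the tumors, Hsd3b1 with the largest fall and Por with the smallest among the 9 that fell. By the mean as a share of the AG mean Star was lower than Hsd3b1, with 0.166% against 0.222% in TI and 0.143% against 0.267% in TIM. The Hsd3b1 window is chr3:98859745-98860044 on the minus strand and holds 38.7% G and C. The Por window is chr5:135688895-135689194 on the plus strand and holds 67.3%. The median over all 32851 windows was 52.7%, and the pair stood at the 7.91 and 86.2 percentiles.
Hsd3b1: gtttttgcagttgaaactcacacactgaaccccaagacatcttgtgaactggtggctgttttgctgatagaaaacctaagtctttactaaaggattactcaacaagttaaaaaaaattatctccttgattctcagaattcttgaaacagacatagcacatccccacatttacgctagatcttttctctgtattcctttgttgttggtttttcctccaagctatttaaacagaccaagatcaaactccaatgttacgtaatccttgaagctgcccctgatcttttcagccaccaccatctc
Por: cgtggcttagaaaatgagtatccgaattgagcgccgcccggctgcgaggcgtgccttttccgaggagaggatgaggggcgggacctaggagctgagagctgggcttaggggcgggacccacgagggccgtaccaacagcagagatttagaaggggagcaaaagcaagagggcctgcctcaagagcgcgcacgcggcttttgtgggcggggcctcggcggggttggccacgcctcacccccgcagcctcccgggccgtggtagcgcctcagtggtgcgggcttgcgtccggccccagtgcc
On both strands, 4 motifs were searched, CAAGGNCA (bound by NR5A1, the steroidogenic nuclear receptor), AAGGTCA (which can overlap it), TGACGTCA (the cAMP response element) and TATAAA. They occur in 6.71%, 4.72%, 1.79% and 13.6% of all windows, and none was found in the windows of the 6 genes. That says only that these letters are not in these 300 bases.

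In normal adrenal gland, 9 of the 10 genes were among the well expressed ones and 1 was close to absent. Hsd3b1, the dehydrogenase, had 246.5, 236.1 and 220.3 FPKM in the 3 AG libraries, which made it number 6 of the 10171 tested genes by mean level. Star, the cholesterol carrier, followed with 177.9, 183.8 and 182.9 FPKM (number 9) and Cyp21a1, the 21-hydroxylase, with 130.7, 132.0 and 139.3 FPKM (number 15). These 3 genes differed from each other by more than the spread of the libraries. Of the electron donors, Fdxr had 110.7, 114.4 and 99.5 FPKM (number 27) and Cyb5b 101.2, 90.8 and 91.7 FPKM (number 36). The ranges of these 2 genes overlapped, so their order is not settled. Cyp11b1, the 11-beta-hydroxylase of corticosterone synthesis, had 81.9, 78.7 and 76.2 FPKM (number 49). Fdx1 had 26.9, 32.4 and 31.6 FPKM and Por 17.7, 17.9 and 21.7 FPKM. Cyp11a1, the enzyme of the first and committing step, had only 17.0, 16.5 and 15.4 FPKM (number 518), below Por in each AG library. FPKM is a level per length, which allows genes to be set beside each other. The values are after the authors' batch correction, however, and what it did to the AG level of each gene was not tested. These levels and ranks hold for the corrected values only.

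Cyp11b2, the aldosterone synthase of the zona glomerulosa, was nearly missing from AG, with 0.063, 0.035 and 0.046 FPKM from 11, 6 and 8 reads. These are values after the authors' batch correction, and AG and AGM came from different runs. What the correction did to a gene this low was not tested. The AG values near 0 of Cyp11b2, and of Nr0b1 and Gata4 named later, may depend on it, since AG and AGM share no run. Some other markers of that outer zone were present in the same libraries. The potassium channel gene Kcnk3 had a mean of 121 FPKM, and Wnt4, a signal of the zone, ranged from 12.3 to 14.2 FPKM. Of the 8 listed markers of the zone, 2 stayed below 1 FPKM in every AG library, and the summed level was 150 to 160 FPKM. Among general cortex markers in AG, the receptor gene Nr5a1 had 7.96 FPKM and the ACTH receptor partner Mrap 5.25 FPKM, whereas Nr0b1, a nuclear receptor of the cortex, was at 0.0139 FPKM. The medulla was in these glands too, with the granule protein gene Chga at 53.9 to 78.4 FPKM. The fat markers Car3 and Cfd reached 631 and 520 FPKM in AG, in the same libraries.

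**Figure D1:**
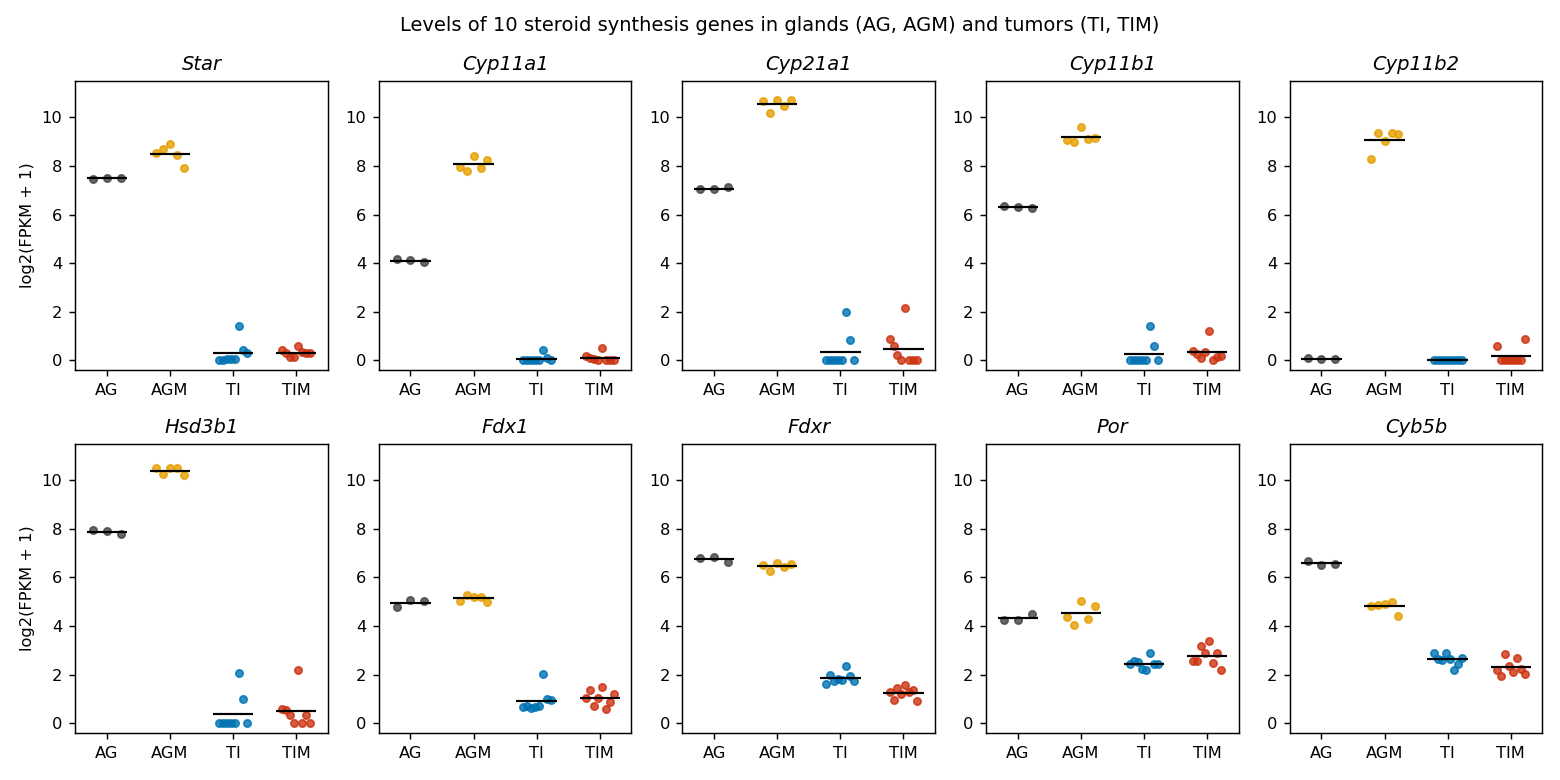
Level of each of the 10 genes as log2(FPKM + 1) in AG (n = 3), AGM (n = 5), TI (n = 8) and TIM (n = 8); points are libraries and lines are group means. The 5 genes of the upper row and Hsd3b1 lie highest in AGM and near 0 in most tumors, whereas Por and Cyb5b stay above 2 FPKM in all 16 tumors.

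The AGM glands were compared with AG to ask how a gland with the MYCN transgene but no tumor differs from a normal gland. The age of the AG mice is not given in the paper's text, so the part of age was not tested. Cyp11b2 entered the fit only through AGM, so its difference is described without a test. Of the other 9 genes, 5 were higher in AGM and 1 was lower (limma, FDR below 0.05), where 14.6% of all tested genes were called higher and 14.0% lower. The 5 were Star, Cyp11a1, Hsd3b1, Cyp21a1 and Cyp11b1, and the 1 that fell was the electron donor Cyb5b. The median log2 fold change was 0.99 over the 9 genes and 0.00 over all tested genes.

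Cyp11b2 had 310.6, 665.4, 527.0, 662.4 and 631.5 FPKM in AGM, from 40928 to 99302 reads, against at most 11 reads in an AG library. The log2 difference of the group means was 9.01, and the groups did not overlap. Of all 21833 genes, 23 shared that pattern of no more than 11 reads in any AG library and at least 40928 in every AGM library, so Cyp11b2 was not alone in it. Run and group cannot be told apart in this difference, and the size of it rests on the corrected AG values near 0. Cyp11a1 had 246.3, 223.5, 339.1 and 241.1 FPKM in 4 AGM libraries and 302.5 FPKM in the fifth. Its mean of 270 ± 48.5 FPKM (SD, n = 5) was 16.6 times that of AG (log2 fold change 3.96 ± 0.14, SE, FDR 1.29e-16, limma). In AGM its level thus came close to that of Star, 371 ± 87.9 FPKM (SD, n = 5).

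Cyp21a1 had 1632, 1167, 1678, 1429 and 1665 FPKM in AGM, so that its mean was 1514 ± 219 FPKM (SD, n = 5) (log2 fold change 3.48 ± 0.44, SE, FDR 1.81e-06, limma). Hsd3b1 had 1429, 1220, 1461, 1434 and 1175 FPKM, with a mean of 1344 ± 135 FPKM (SD, n = 5) (log2 fold change 2.51 ± 0.44, SE, FDR 0.000143, limma). Both genes passed 1000 FPKM in each of the 5 AGM libraries and so belonged to the 126 genes with extreme values. Cyp11b1 had 541.2, 511.7, 788.1, 550.2 and 570.1 FPKM, with a mean of 592 ± 111 FPKM (SD, n = 5) (log2 fold change 2.87 ± 0.28, SE, FDR 3.21e-08, limma). Star rose least of the 5, with 370.6, 415.5, 475.7, 354.3 and 238.0 FPKM (log2 fold change 0.99 ± 0.25, SE, FDR 0.00435, limma). No AGM library of these genes came down to an AG value, as held for 29.4% of all tested genes. The calls of Hsd3b1 and Star depended on the settings: with a pseudocount of 0.1 FPKM their FDR was 0.0851 and 0.229, and with FPKM recomputed over the genes below 1000 FPKM it was 0.0673 and 0.452 (limma).

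The electron donors did not follow the enzymes upward. Cyb5b fell to 27.1, 28.5, 29.3, 31.1 and 19.98 FPKM, 28.8% of its AG mean (log2 fold change -1.77 ± 0.19, SE, FDR 1.71e-07, limma), with no overlap between the groups, as for 32.5% of all tested genes in that direction. Fdxr, the reductase at the head of the mitochondrial relay, was 88.3 ± 8.17 FPKM (SD, n = 5) in AGM against 108 ± 7.77 FPKM (SD, n = 3) in AG, a log2 difference of -0.29 that missed the threshold (FDR 0.174, limma). With recomputed FPKM that difference was -0.77 and passed (FDR 0.00603). Fdx1 was 34.3 ± 2.74 FPKM (SD, n = 5) in AGM, with a log2 difference of 0.18 (95% confidence interval -0.33 to 0.68, limma FDR 0.635). Por ranged from 15.6 to 31.4 FPKM in AGM, around the AG values, with a log2 difference of 0.19 (95% confidence interval -0.29 to 0.67, limma FDR 0.589).

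Balances inside the chain were taken per library as the difference of log2(FPKM + 1) between the 2 genes of a pair and compared by exact two-sided permutation tests, adjusted over 10 tests (5 pairs in AGM vs AG and in TIM vs TI). In AGM vs AG the smallest p that 56 splits allow is 0.0179, and 4 of the 5 pairs reached it (adjusted p 0.0357 each). Cyp11b2 to Cyp11b1 is 1 of these 4. As Cyp11b2 passed the filter only through AGM, its p is no evidence and its balance is given as a description. Cyp11b2 moved up against Cyp11b1 by 6.14, from -6.25 ± 0.04 in AG to -0.12 ± 0.53 in AGM (SD), so the 2 synthases had like levels in AGM. Star fell by 2.97 relative to Cyp11a1, from 3.40 ± 0.09 to 0.44 ± 0.46, and in 1 AGM library Star was below Cyp11a1. Hsd3b1 fell by 1.45 relative to Cyp11a1 and Por fell by 3.29 relative to Cyp21a1, the microsomal enzyme it serves. Fdx1 against Fdxr differed by 0.47 (exact permutation p 0.0357, adjusted p 0.0595).

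**Figure D2:**
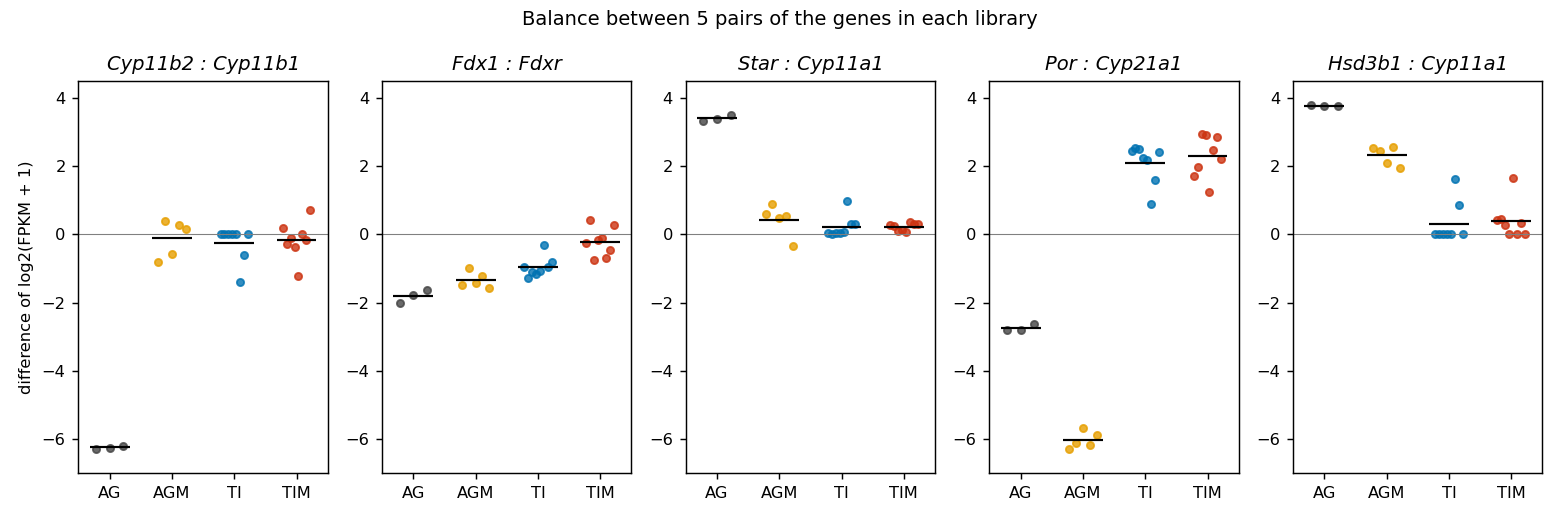
Difference of log2(FPKM + 1) between the 2 genes of each of 5 pairs in every library of the 4 groups; points are libraries and lines are group means. AG lies apart from AGM in 4 pairs, with Cyp11b2 against Cyp11b1 at -6.25 in AG and -0.12 in AGM, and TIM lies above TI for Fdx1 against Fdxr.

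Other genes around the chain differed between the same glands. The AG values near 0 named here, of Nr0b1, Gata4, Srd5a2 and Cyp17a1, are corrected values like those of Cyp11b2, with the same limit, and these genes, like Wt1 and Mtarc1, reached 1 FPKM in no library outside AGM. They are given as levels or, for Mtarc1, as a difference without a test, and the list counts that include them are descriptions. Of 10 tested cortex regulators 6 were higher and 2 lower in AGM, where 14.6% of all tested genes were called higher and 14.0% lower. Nr0b1 had a mean of 0.0139 FPKM in AG and 144 FPKM in AGM, the transcription factor gene Gata4 had 0.00643 and 25.7 FPKM, and Nr5a1 rose from 7.96 to 51.7 FPKM. Of 10 tested other steroid enzymes 6 were higher and 2 lower. Srd5a2, a steroid 5-alpha-reductase, had 0.0176 FPKM in AG and 350 FPKM in AGM, and Cyp17a1, the 17-alpha-hydroxylase that mouse adrenals are known to lack, 0.0068 and 146 FPKM, while the 5-beta-reductase Akr1d1 fell from 169 to 34.7 FPKM. Cyp17a1 ranged from 6.40 to 420 FPKM between AGM libraries, a far wider spread than that of Star and the 5 enzymes of the chain. Of 13 tested genes of cholesterol supply and import only Tspo, which encodes an outer mitochondrial membrane protein, was higher (limma log2 fold change 1.49, FDR 0.0465). Of 9 other electron transfer proteins 2 were higher and 1 lower, read against 14.6% and 14.0% of all tested genes. H6pd, which makes NADPH in the endoplasmic reticulum, rose by 1.15 on the log2 scale. Mtarc1, a molybdenum enzyme, had a log2 difference of 1.59, given as a description since it reached 1 FPKM in AGM only.

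Markers of other cell types moved with these differences, and their part in them was not tested. Their counts stand beside 14.6% of all tested genes called higher and 14.0% called lower. Of 10 chromaffin markers 7 were higher in AGM, with a summed level of 139 to 201 FPKM in AG and 1845 to 3250 FPKM in AGM. Of 8 cortex markers outside the chain 5 were higher, with sums of 75.8 to 102 FPKM and 833 to 1431 FPKM. Exocrine pancreas markers summed to at most 2.50 FPKM in AG and to at least 28352 FPKM in AGM, nearly all of it from Cpb1 and Ctrb1, while Cel was at 0 in AGM. Sums this high are corrected values and cannot be read as an amount of pancreas tissue. Liver markers summed to 3.38 to 8.59 FPKM in AG and to 5.31 to 6072 FPKM in AGM, with 5 of 6 called higher. The gonad steroid cell list summed to at most 0.209 FPKM in AG and ranged from 6.85 to 421 FPKM in AGM, led by Cyp17a1, with Fshr at 0. Of 8 fat markers 3 were higher and 1 lower.

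The tumors were compared with AG to ask at what level the cortical chain is found in neuroblastoma. In TI vs AG 9 of the 10 genes were lower and none higher (limma, FDR below 0.05), where 27.7% of all tested genes were called lower. In TIM vs AG the same 9 genes were lower, where 28.5% were called lower. The median log2 fold change of the 10 genes was -4.47 in TI and -4.90 in TIM, against 0.00 over all tested genes in both. The 2 comparisons share the AG libraries. Only 1 TI and 2 TIM samples were labelled tumor adrenal gland. The paper places most IGF2BP1 tumors in the lower abdomen, as potentially arising from sympathetic nerves. A fall here thus means a level below AG, not a change within a gland. In bulk tissue, another tissue of origin, fewer cortex cells and less RNA per cortex cell cannot be told apart.

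Hsd3b1 had 0 FPKM in 6 of 8 TI tumors and 3.19 FPKM at most, and a log2 fold change of -7.50 ± 0.40 (SE, FDR 3.6e-13, limma), the second lowest of the 10171 tested genes. In TIM it was at 0 in 3 of 8 tumors, with a median of 0.252 and a maximum of 3.54 FPKM (log2 fold change -7.38, FDR 4.44e-13, limma). Star was the only one of the 6 carrier and enzyme genes with reads in all 16 tumors. It had 0.0151 to 1.69 FPKM in TI (median 0.0391) and 0.1001 to 0.510 FPKM in TIM (median 0.245), with log2 fold changes of -7.22 and -7.19. Cyp21a1 was at 0 in 5 TI and 3 TIM tumors and reached 2.94 and 3.47 FPKM (log2 fold changes -6.73 and -6.59). Cyp11b1 was at 0 in 6 TI and 1 TIM tumors and reached 1.64 and 1.34 FPKM (-6.07 and -5.98). Cyp11a1 was at 0 in 4 tumors of each group and reached 0.367 and 0.432 FPKM (-4.04 and -4.01). All these values were below every AG library, as held for 27.3% of all tested genes in TI and 24.7% in TIM. A count of 0 allows up to 3 reads, which for these genes means up to 0.00468 to 0.0182 FPKM, counting error only. The log2(FPKM + 1) scale understates the fall of genes that end near 0, most of all for Cyp11a1, which started lowest.

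Cyp11b2 was low in AG and in the tumors and was not called in either comparison (log2 difference -0.07, FDR 0.835 in TI; 0.11, FDR 0.653 in TIM, limma). With only AG and TI in the fit the TI difference was called at the same size (FDR 2.39e-05), and no TI tumor reached an AG value. It had 2 reads in 1 TI tumor and none in the other 7, where a count of 0 allows up to 0.0144 to 0.0247 FPKM. In TIM it was at 0 in 6 tumors, with 0.499 FPKM (86 reads) in TIM library 1 and 0.836 FPKM (121 reads) in TIM library 8. Both were above the highest AG value of 0.063 FPKM, and in both Cyp11b2 exceeded Cyp11b1, which had 0.307 and 0.128 FPKM there. Star, Cyp11a1, Hsd3b1, Cyp21a1 and Cyp11b1 together held 607 reads in TIM library 1 and 122 in TIM library 8. In TIM library 5, which had no Cyp11b2 read, they held 2037.

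The electron donors fell too, but none was lost. Fdxr fell to 2.08 to 4.11 FPKM in TI (median 2.49) and 0.908 to 2.01 FPKM in TIM (median 1.44), with log2 fold changes of -4.90 ± 0.15 (SE, FDR 7.4e-18, limma) and -5.51 ± 0.15 (SE, FDR 6.14e-19, limma). Fdx1 fell to a median of 0.617 FPKM in TI and 1.03 FPKM in TIM, 2.04% and 3.40% of the AG mean (log2 fold changes -4.05 and -3.92). Cyb5b fell to medians of 5.23 and 3.59 FPKM, 5.54% and 3.80% of the AG mean (-3.95 and -4.28). Por, which serves microsomal P450 enzymes of every tissue, kept the largest share, with 3.51 to 6.33 FPKM in TI and 3.60 to 9.55 FPKM in TIM, or 18.3% to 49.9% of the AG mean (-1.87 and -1.56). All 4 donors were below AG in each of the 16 tumors. Against AGM, where 36.2% of tested genes were called lower in TI and 33.4% in TIM, all 9 genes other than Cyp11b2 were lower in both tumor groups, with log2 fold changes from -10.20 (Cyp21a1 in TI) to -1.74 (Por in TIM).

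**Figure D3:**
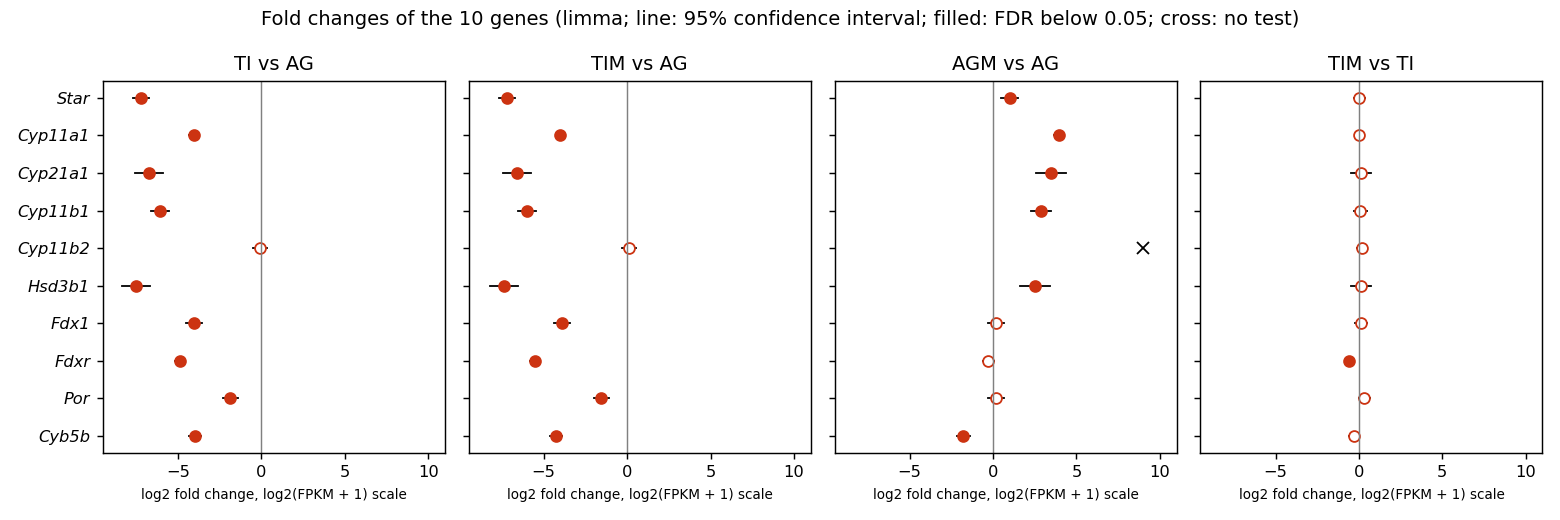
Log2 fold changes of the 10 genes on the log2(FPKM + 1) scale in 4 comparisons, with 95% confidence intervals from limma; filled points have an FDR below 0.05. The tumor comparisons share a row of falls from -7.50 for Hsd3b1 to -1.56 for Por with Cyp11b2 near 0, AGM vs AG shows Cyp11b2 at 9.01 as a cross, given without a test, and TIM vs TI shows a called difference for Fdxr alone.

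The tumor to gland difference was also set against the gland group of each tumor group, TIM against AGM and TI against AG. This interaction equals TIM vs TI minus AGM vs AG, so for genes near 0 in both tumor groups it repeats AGM vs AG with the sign turned and is no separate evidence. Of the 9 genes other than Cyp11b2, 5 were called lower and Cyb5b was called higher (limma, 1.45 ± 0.23, SE, FDR 9.92e-05), where 6.15% and 3.85% of all tested genes were called lower and higher. With Cyp11b2 included the count of calls was 7, and it fell to 3 with a pseudocount of 0.1 FPKM or with recomputed FPKM and to 2 with limma-voom.

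Among the tumors, traces of the cortical genes were uneven. For Star, Cyp11a1, Hsd3b1, Cyp21a1 and Cyp11b1 together, TI library 6 held 2755 reads, with levels of 0.931% to 2.26% of the AG means. TI library 7 held 514 reads, at 0.188% to 0.648%. The other 6 TI tumors held 7 to 92 reads, at 0.124% or less, and in each of them 3 or 4 of the 5 genes were at 0. In TIM, library 5 held 2037 reads, at 0.281% for Star to 2.65% for Cyp11a1. TIM libraries 1, 2 and 3 held 607, 377 and 161 reads with all 5 genes present, at 0.0636% to 0.784%. The remaining 4 TIM tumors held 103 to 207 reads, mostly of Star and Cyp11b1. So 2 of the 16 tumors carried most of the reads, and even these reached no more than 2.65% of the normal level.

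The 5 genes went together within a tumor group. Spearman's rho between pairs of them had a median of 0.789 over the 8 TI libraries and of 0.647 over the 8 TIM libraries, given as a description since the values share libraries and many are 0. Between pairs of electron donors the medians were -0.226 and 0.238. In TI library 6 the donors Fdx1, Fdxr and Por were also the highest of the group, at 3.11, 4.11 and 6.33 FPKM, while Cyb5b was the lowest at 3.53 FPKM. In TIM library 5 the same 3 donors were the highest of their group as well, at 1.81, 2.01 and 9.55 FPKM, with Cyb5b at 3.34 FPKM.

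Other cortex and medulla markers stood beside these traces, and their part in them was not tested. TI library 6 had the highest Akr1b7, an aldose reductase of the cortex, among the tumors with 4.58 FPKM, Nr5a1 at 0.130 FPKM and Mc2r at 0.134 FPKM. It also had 926 FPKM of Chga and 28.8 FPKM of Pnmt, the adrenaline-forming enzyme of chromaffin cells. TIM library 5 had 1.72 FPKM of Akr1b7 and 1266 FPKM of Chga, with Nr5a1 and Mc2r at 0 and the fat marker Adipoq at 5.16 FPKM, the highest of the tumors. High Chga did not always go with cortical transcripts, since TIM library 2 had 1016 FPKM of Chga and cortical levels of at most 0.424%.

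**Figure D4:**
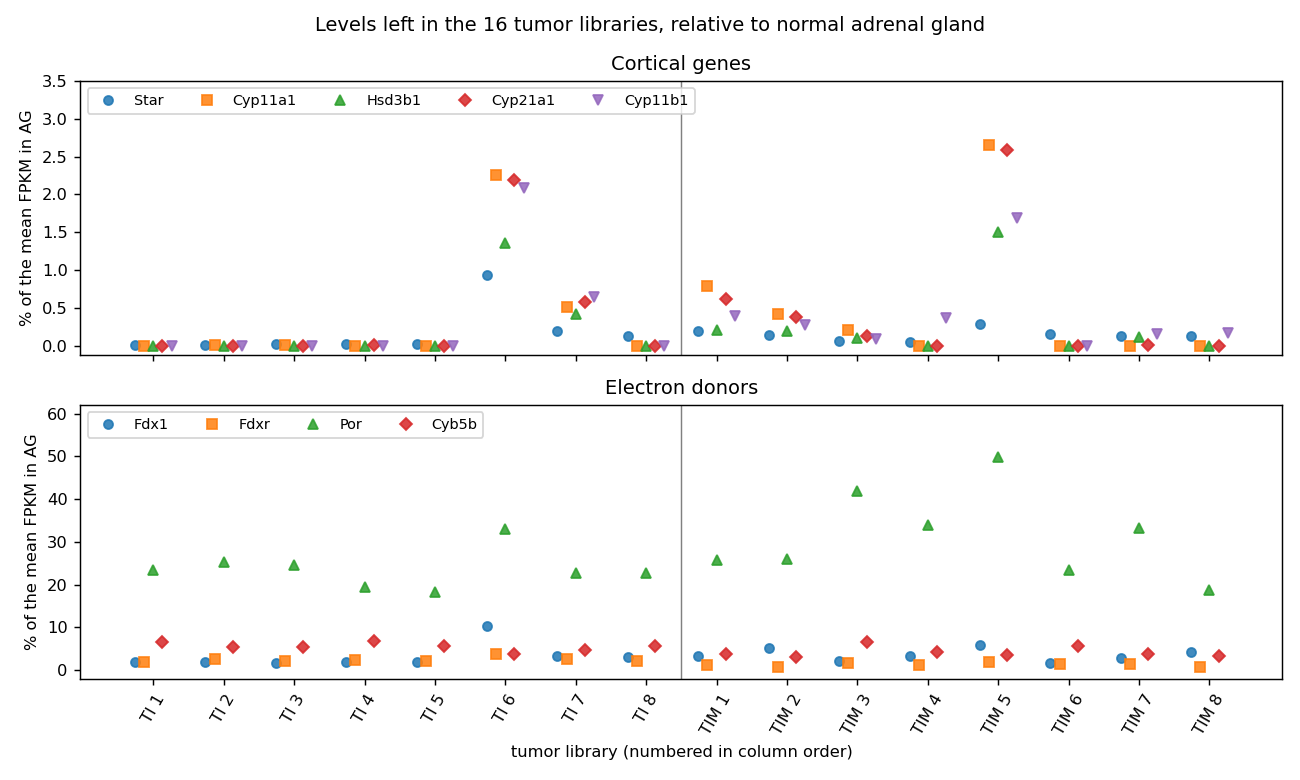
Level of each gene in the 16 tumor libraries as percent of its mean FPKM in AG, with cortical genes above and electron donors below on separate linear scales; libraries are numbered in column order. TI library 6 and TIM library 5 stand out above, at up to 2.26% and 2.65%, and Por is the highest donor in every tumor.

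TIM and TI tumors were compared to ask how tumors with both transgenes differ from those with IGF2BP1 alone. Of the TI samples 7 were labelled IGF2BP1 +/+, whereas TIM mice carried both transgenes at Rosa26, so the number of IGF2BP1 copies and the presence of MYCN cannot be told apart. TI came mainly from run 1 and TIM from runs 2 and 3, and as runs could not be tied to libraries there is no value within a run. Of the 10 genes only Fdxr passed the threshold, lower in TIM (limma log2 fold change -0.62 ± 0.11, SE, FDR 0.000477), where 12.9% of all tested genes were called lower. The highest TIM value of Fdxr, 2.01 FPKM, was just below the lowest TI value, 2.08 FPKM. Of all tested genes 0.787% lay without overlap in that direction. The balance of Fdx1 to Fdxr moved with it, from -0.96 ± 0.30 in TI to -0.22 ± 0.42 in TIM (SD, n = 8 each, exact permutation p 0.00171, adjusted p 0.0171). The other 4 balances did not pass (adjusted exact permutation p 0.793 to 0.996). Fdxr lies on a chromosome for which the paper reports copy number gains more often in TI than in TIM tumors. Whether these gains cover Fdxr is not given in the paper's text. The part of copy number in the Fdxr difference was not tested. Cyb5b was lower in TIM by a log2 difference of -0.33, which missed the threshold (FDR 0.0753, limma) and passed it without TI library 6, TIM library 3 or TIM library 6 (FDR 0.0281, 0.0211 and 0.0353). Por tended the other way with a log2 difference of 0.32 (95% confidence interval -0.02 to 0.65, FDR 0.157, limma). The 6 carrier and enzyme genes differed by 0.03 to 0.18 on the log2 scale, and without TIM library 5 Hsd3b1, Cyp21a1, Cyp11a1, Cyp11b1 and Star turned slightly negative. Their 95% confidence intervals reached from -0.50 to 0.75, so differences within that range could not be resolved. The log2(FPKM + 1) scale compresses values near 0, so larger ratios between the tumor groups would not show on it. The Star median was 0.0391 FPKM in TI and 0.245 FPKM in TIM, whereas the means were 0.301 and 0.260 FPKM. Cyp11b1 was at 0 in 6 TI tumors and 1 TIM tumor. Exocrine pancreas markers summed to at most 3.40 FPKM in TI and to between 0.443 and 3586339 FPKM in TIM, and their part in these differences was not tested. Sums this high are corrected values and cannot be read as an amount of pancreas tissue.

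Other parts of the pathway were compared with AG as well, where 27.7% of all tested genes were called lower in TI and 28.5% in TIM. Of 13 tested genes of cholesterol supply 8 were lower in TI and 8 in TIM, with the HDL receptor Scarb1 (log2 fold changes -3.89 and -3.86) and the cholesterol-esterifying enzyme Soat1 (-3.44 and -3.46) in front. Tspo fell by 3.40 and 3.19, whereas Vdac1, a general pore of the outer membrane, had 33.7 FPKM in AG, 27.7 in TI and 29.8 in TIM and did not pass. Of 10 tested cortex regulators 5 were lower and 1 higher in TI, and 4 were lower in TIM, led by Nr5a1 (-3.13 and -3.14) and Mrap (-2.57 and -2.28). The 1 that rose in TI was Prkar1a, a regulatory subunit of protein kinase A (0.60, FDR 0.00307, limma). The 4 of 10 lower in TIM stood near the 28.5% called lower over all tested genes. Of 10 tested other steroid enzymes 8 were lower in TI and 7 in TIM, with Akr1d1 at -7.29 and -7.39 and Akr1b7 at -3.91 and -4.13. Of 9 other electron transfer proteins 6 were lower in each, with Cyb5r3, a cytochrome b5 reductase, at -1.53 in both and H6pd at -1.56 and -1.18, while Pgrmc1, a heme-binding partner of P450 enzymes, fell from 31.5 to 17.4 and 20.4 FPKM. All 8 fat markers were lower in both tumor groups. Of 10 neuroblast markers 9 were higher in TI and 8 in TIM, where 24.6% and 22.5% of all tested genes were called higher.

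The genes whose level followed the chain most closely were named by Pearson's r with the mean standardized level of the 10 genes. Over the 24 libraries these were Cyp2f2 (r = 0.998), Akr1cl (0.998), Npr1 (0.997), Il10rb (0.997) and Mapk13 (0.996), of which Cyp2f2, a cytochrome P450 gene, had 71.1 FPKM in AG, 227 in AGM and 0.0687 and 0.0865 in the tumor groups. Over the 16 tumors they were Akr1cl (0.983), Cyp2f2 (0.969), Akr1b7 (0.948), Cd209a (0.947) and Adh1 (0.922). These values describe 4 groups that lie far apart, or a few tumors with traces, and carry no test.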

How the data were processed

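The authors trimmed the reads with cutadapt 2.8, aligned them with HISAT2 2.1.0 to mm39, counted them with featureCounts 2.0.0, corrected the counts for batch with ComBat-seq and scaled them by TMM in edgeR 3.40. The annotation and the strand setting are not given in the sources used here. The deposited values are FPKM for 21833 protein-coding genes in 24 columns, with the gene length. The 9 deposited columns of the authors' own comparisons (log2 fold change, p-value, FDR) were not used, and 0 columns belonged to no sample of the series.

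The genes, lists and tests were chosen with earlier results of these data known. limma 3.58.1 in R 4.3.3 (lmFit, then eBayes with trend) took log2(FPKM + 1) of 10171 genes in all 24 libraries and 4 groups without covariates, with Benjamini-Hochberg adjustment. Fold changes are on that scale. Intervals are 95% confidence intervals of limma. P-values measure the spread between samples of a group. Balances of 2 genes were compared by exact permutation tests. In simulated data with 10071 genes, 200 of them changed, 96% to 100% of changes of 2 and 19% to 70% of changes of 1 on the log2 scale were recovered in the 6 comparisons of groups and 1.68% to 9.09% of calls were false. Depth is given as reads recovered from the FPKM steps, and covers counting error only.

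Named beside the 10 genes were, in each pathway list, the 2 highest in AG and the 2 called genes that changed most against AG, in each marker list the 3 with the highest single value, and the 5 most alike in pattern. Nr5a1, Mc2r, Pnmt, Adipoq, Fshr and Cel were added as defining markers after their values were seen. Alternatives were a pseudocount of 0.1 FPKM, no filter, 1 FPKM in every library, fits of the compared groups only, FPKM recomputed over genes below 1000 FPKM, equal medians, limma-voom on recovered reads, no intensity trend, and leaving out each library. The test planned for genes below the filter was not needed, since all 10 passed.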

Additional observations from a re-analysis of the deposited data

Results flagged for a closer look

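In 14 of the 30 sets of values (10 genes in AGM, TI and TIM) the highest library lay further from the others than Dixon's 95% limit allows. That limit is made for normally distributed values, where about 1 in 20 would pass. These are FPKM values with many at 0, so that rate does not apply and the 14 are a description. For Cyp11b2 in TI, 1 library above 0 passes the limit whatever its value. The sets are not independent, since 9 of them concern TI library 6 and 4 concern TIM library 5. TI library 6 was far above the other 7 for Star (1.69 FPKM), Cyp11a1 (0.367), Cyp21a1 (2.94), Cyp11b1 (1.64), Hsd3b1 (3.19), Fdx1 (3.11), Fdxr (4.11) and Por (6.33). For Cyp11b2 it was the only TI library above 0, with 0.0117 FPKM from 2 reads, which is below what a count of 0 allows in the others (0.0144 to 0.0247 FPKM). TIM library 5 was far above the other 7 for Cyp11a1 (0.432 FPKM), Cyp21a1 (3.47), Cyp11b1 (1.34) and Hsd3b1 (3.54). AGM library 3 was far above the other 4 for Cyp11b1 (788 FPKM).

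The interaction term in limma, TIM against AGM set against TI against AG, was called for 7 genes on the log2 scale: Cyp11b2 (-8.83), Cyp11a1 (-3.92), Cyp21a1 (-3.34), Cyp11b1 (-2.79), Hsd3b1 (-2.40), Star (-0.96) and Cyb5b (1.45). The term equals TIM vs TI minus AGM vs AG. For the first 6 of these genes, which were near 0 in both tumor groups, it thus repeats the difference between the gland groups. Cyp11b2 entered the fit only through AGM, so its value is a description and its call is no evidence. The 2 gland groups came from different sequencing runs, so run and gland group cannot be told apart here.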

How the results depend on the processing

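Counts here include Cyp11b2. The 9 falls in TI and in TIM against AG and the 10 against AGM were found under each alternative that tested all 10 genes, including each left-out library. Of the 10 against AGM, that of Cyp11b2 is no evidence, since this gene passed the filter only through AGM. With at least 1 FPKM required in every library only Por and Cyb5b were tested, so the counts were 2 (TI vs AG), 2 (TIM vs AG), 2 (TIM vs AGM), 2 (TI vs AGM), 1 (AGM vs AG), 0 (TIM vs TI) and 1 (the interaction). The interaction count was 3 with a pseudocount of 0.1 FPKM, 3 with recomputed FPKM, 2 with limma-voom and 6 to 7 without single libraries, where the call of Star was lost. TIM vs TI gave 2 with recomputed FPKM and 1 to 2 without single libraries. The balances in AGM vs AG gave 0 to 5 calls without single libraries, since fewer splits remain and the smallest p rises. Except where stated, the cause was not tested.

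Signs turned only for differences that were not called, apart from the interaction. Recomputed FPKM gave Por -0.27 and Fdx1 -0.29 in AGM vs AG, and limma-voom gave Cyp11b2 -2.15 in TIM vs AG. In the interaction limma-voom gave Hsd3b1 0.10, Star 0.47 and Cyp11b1 1.39. Fdx1 in the interaction was 0.092 with a pseudocount of 0.1 FPKM, 0.42 recomputed, 0.00179 with equal medians, 0.15 with limma-voom and -0.11 to 0.11 without single libraries. In TIM vs TI, single left-out libraries gave ranges of -0.00776 to 0.19 (Star), -0.13 to 0.36 (Hsd3b1), -0.026 to 0.087 (Cyp11a1), -0.040 to 0.25 (Cyp11b1) and -0.11 to 0.37 (Cyp21a1). The balances in TIM vs TI turned with a pseudocount of 0.1 FPKM (Cyp11b2 to Cyp11b1 -0.022, Star to Cyp11a1 0.33, Por to Cyp21a1 -0.19) and recomputed FPKM (Star to Cyp11a1 0.18, Por to Cyp21a1 -0.10), and without single libraries ranged from -0.068 to 0.25 (Cyp11b2 to Cyp11b1), -0.031 to 0.11 (Star to Cyp11a1) and -0.10 to 0.27 (Hsd3b1 to Cyp11a1). With only the compared groups in the fit, Cyp11b2 was called in TI vs AG at the same log2 difference of -0.07 (limma FDR 2.39e-05).

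No paired analysis was possible because the columns carry no number that matches the sample titles. The planned replicate block was therefore not run. Genes at a few reads, as most cortical genes in tumors, are limited by depth, and Cyp11b1 and Cyp11b2 by their similarity.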
